A study of Mus musculus with 12 samples.

Results

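The genes described here are 48 mitosis and kinetochore genes, chosen by name from the kinases, cyclins, checkpoint, kinetochore, kinesin, condensin and cytokinesis genes of dividing cells. Of these, 47 had a probe set with a single gene symbol among the 19935 genes named in this way, and Ccnb1, the cyclin B1 gene, is not analysed here. They were followed in 4 groups of hematopoietic stem cells (HSCs) of the mouse, the source of all blood lineages in bone marrow: male E2, male oil, female E2 and female oil, with 3 arrays in each. E2 is estradiol, the main estrogen, given subcutaneously as 2 µg in 100 µL of corn oil. The oil groups received 100 µL of corn oil alone, so that both arms carried the vehicle. The mice were 2 to 3 months old. Each array held RNA from 5000 to 7000 cells gated on c-kit+, Sca-1+ and CD150+ and on the absence of CD48 and lineage markers. For the strain, the number of mice per array and the time after injection no value is given in the labels, and nothing states that the replicates came from separate mice, so the p-values measure the spread between these arrays, which may be technical.

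Cells enter mitosis when Cdk1, bound to A- and B-type cyclins, is switched on by Cdc25 phosphatases. Chromosomes are then compacted by condensin and attached through kinetochores to spindle microtubules, and the spindle checkpoint holds the anaphase-promoting complex (APC/C) in check until attachment is complete. Most of these genes are transcribed late in the cell cycle and shut down in resting cells, and HSCs mostly rest, so several of them, such as Mki67 and Top2a, are in common use as markers of cycling cells. In the bulk RNA measured here, a change in the share of cells in mitosis and a change in RNA per cell cannot be told apart.

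Values are deposited linear intensities, and differences are on the scale of log2(intensity + 1), where 1 is a doubling. A gene was called when its adjusted p in limma was under 0.05, with Benjamini-Hochberg adjustment over the 9967 genes whose mean log2 level was above the median of 7.52, an intensity of 182. Array medians ran from 143.3 to 159.4. With 3 arrays a group, every difference below has limited precision. Xist measured 3417 to 3897 on female arrays and 61.9 to 73.0 on male arrays, so all 12 arrays matched their labelled sex. All 10 HSC markers found passed the filter. Slamf1 (which encodes CD150) measured 349.9 to 686, Kit 1820 to 2756 and Hlf 2399 to 3184 over the 12 arrays. Granulocyte genes were measured too, with S100a8 at 1561 to 6005 and Mpo at 77.15 to 2775. Levels alone thus do not show how pure the sorted cells were. Of the 47 genes, 46 passed the filter. Cdc25b, a Cdc25 phosphatase, stayed below it, at 154, 162 and 153 on the male E2 arrays, against 169, 132 and 162 on the male oil arrays, and at 137, 168 and 139 on the female E2 arrays, against 136, 123 and 147 on the female oil arrays. Probe sets of different genes do not share a scale, so levels are compared only within a gene.

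E2 raised 8 of the 46 genes when its effect was averaged over the sexes, and lowered 0, against a background of 3.12% of all genes tested called higher and 5.78% called lower. The 8 were the condensin genes Ncapg and Ncapd2, the mitotic kinase gene Cdk1, the checkpoint gene Mad2l1, the kinetochore genes Cenph, Ndc80 and Nuf2, and the cytokinesis gene Ect2. Their averaged log2 fold changes ran from 0.29 for Ncapd2 to 0.47 for Cenph, or 1.22- to 1.38-fold. The averaged difference was above 0 for 45 of the 46 genes, or 97.8%, with a median of 0.24, whereas 46.7% of all genes tested were above 0 and their median was -0.01. At an unadjusted p under 0.05 the number was 27 of 46, against 2453 of the 9967 genes tested, in either direction. The same background applies to the subgroup counts below. Because the filter used the mean over all arrays, including the E2 arrays, the 46 are not all members of the set.

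**Figure D1:**
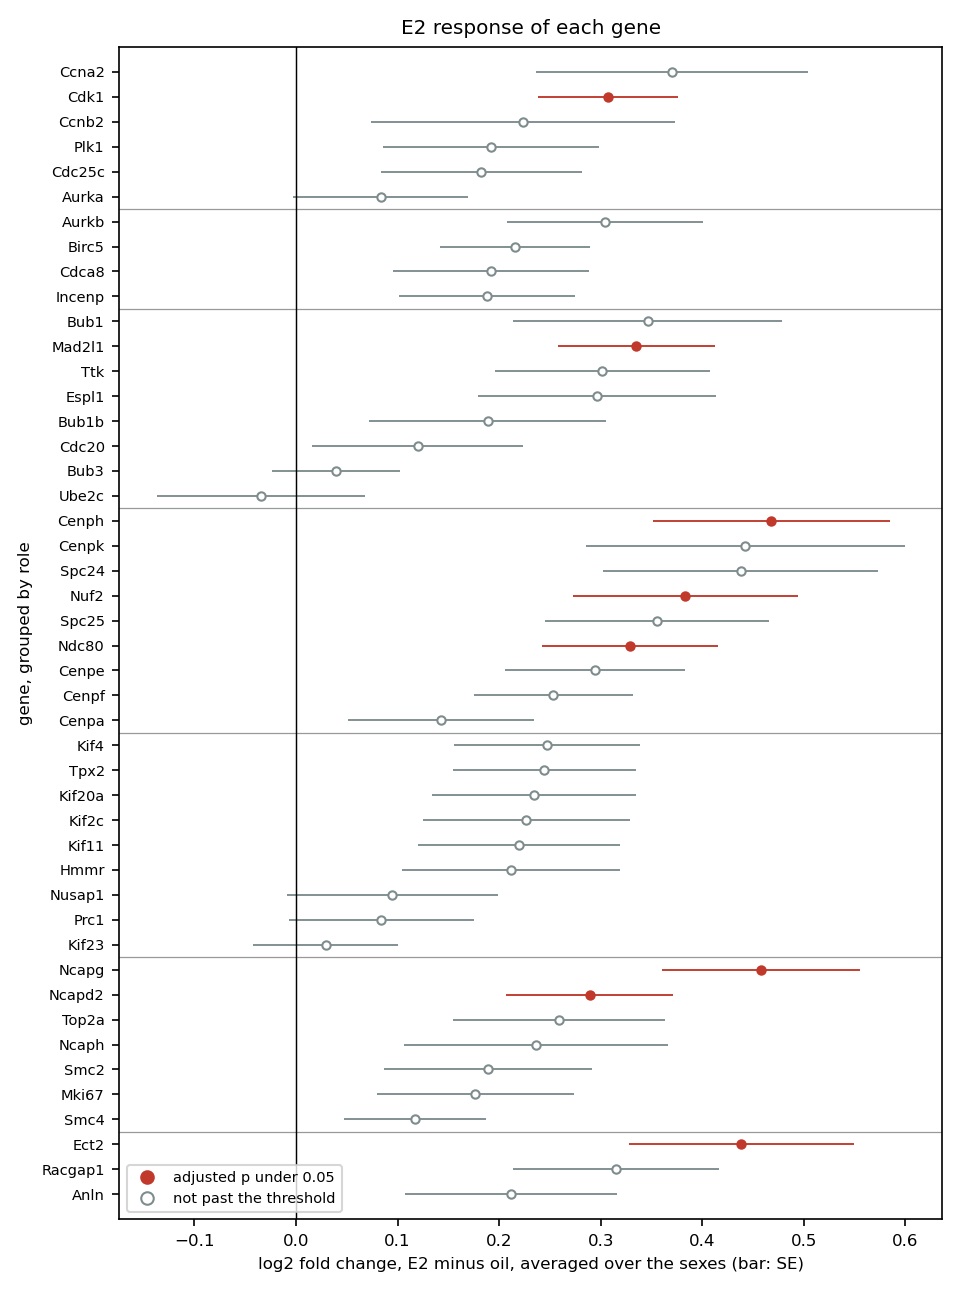
Averaged E2 response of the 46 genes above the filter, grouped by role. The x axis is the log2 fold change of E2 over oil averaged over the sexes, bars are standard errors, and filled red points mark the 8 genes with an adjusted p under 0.05. Ube2c, at -0.03, is the one gene to the left of 0.

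The response was uneven between arrays. The mean of the 46 genes, taken minus the oil mean of the same sex, was 0.43, 0.21 and 0.26 on male E2 replicates 1, 2 and 3, against 0.04, -0.13 and 0.08 on the male oil arrays. In females it was 0.45, 0.04 and 0.09 on E2 replicates 1, 2 and 3, against 0.05, -0.03 and -0.03 on the oil arrays. The same mean over all genes tested was -0.0003, -0.06 and -0.04 on these female E2 arrays. On the other arrays it ran from -0.007 to 0.01, and it was not subtracted here. For the 46 genes, all 3 male E2 arrays lay above the male oil arrays, whereas in females E2 replicate 2 lay below oil replicate 1. Female E2 replicate 1 was the highest of all 12 arrays for 34 of the 46 genes, or 73.9%, while it was highest for 17.9% of all genes tested. For the 46 genes, the counts of called genes and the medians that include the female E2 arrays are therefore also given without it. Averaged medians of the subgroups and values of the S phase list are given without it too, but not those of the other lists.

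**Figure D2:**
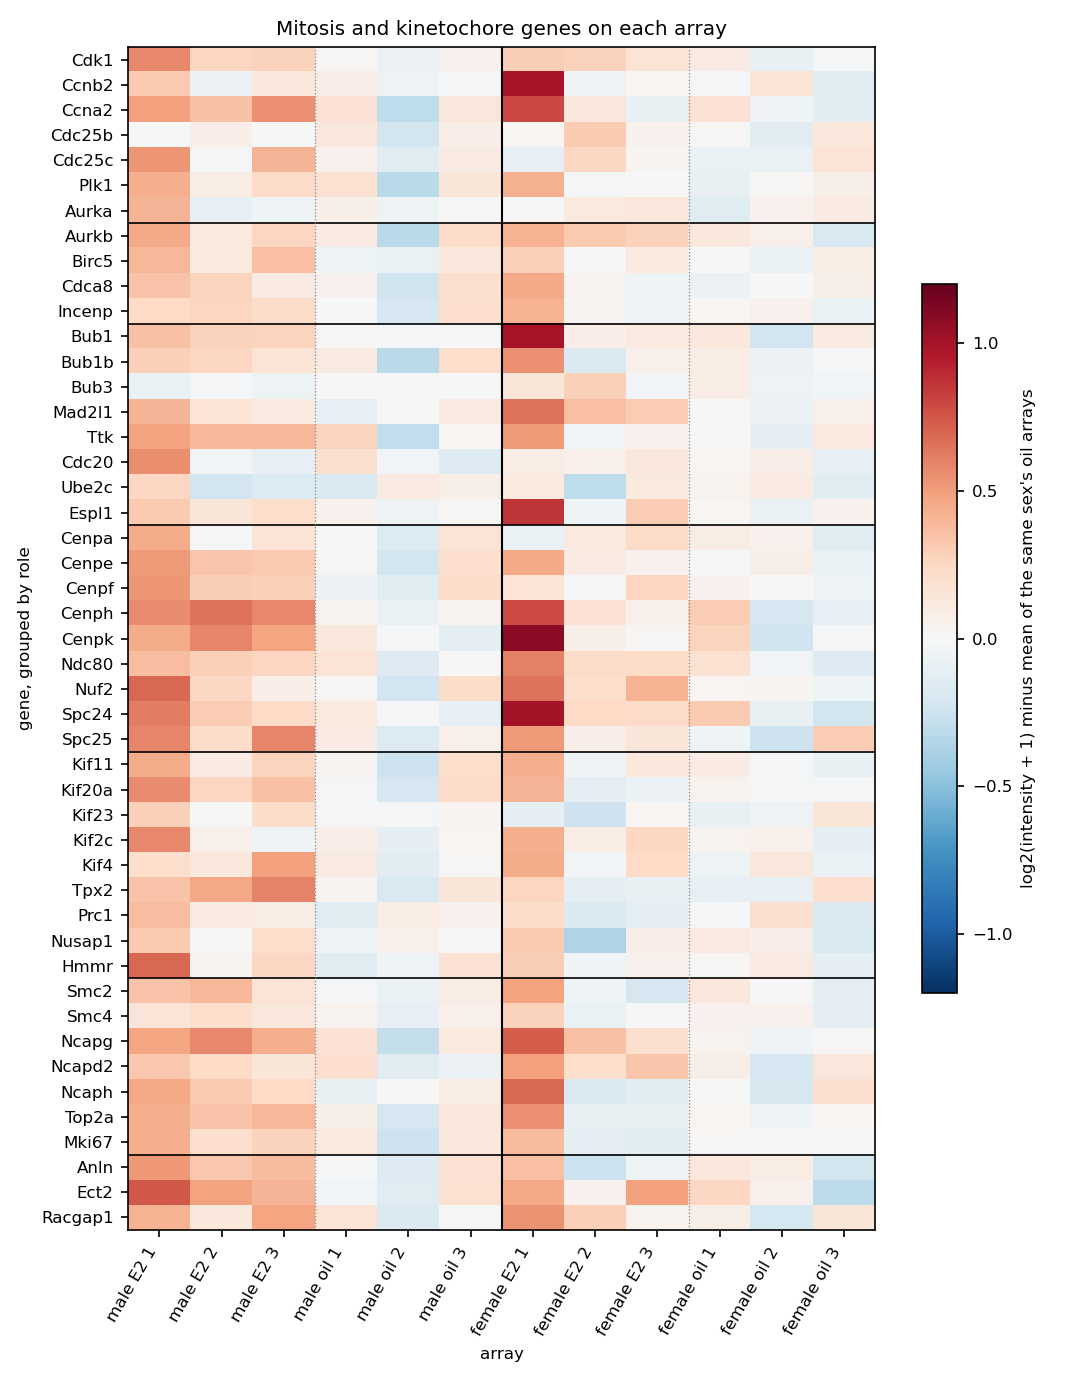
Each of the 47 genes on each array, in rows grouped by role. Colour is the log2 value minus the mean of the same sex's oil arrays, with E2 arrays left of the oil arrays in each sex. The column of female E2 replicate 1 is the darkest red, and female E2 replicates 2 and 3 are pale for most genes.

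The calls depended on which arrays were in the fit. Ncapg and Cdk1 were called in all 21 alternative settings, Mad2l1 in 20, Cenph in 15, Ect2 in 14, Ndc80 in 13, Ncapd2 in 10 and Nuf2 in 8. The count of 8 became 2 without female oil replicate 2, 3 without male oil replicate 2, 4 without male E2 replicate 1 or without male E2 replicate 2, and 5 without male E2 replicate 3 or without female oil replicate 3. The share of all genes called in those fits is not given here. A loss particular to these genes thus cannot be told from a general loss of calls. Without female E2 replicate 1 the count was 6, against 3.19% of all genes tested called higher. Ncapd2 and Nuf2 then had adjusted p of 0.0712 and 0.0801, and the median of the 46 genes was 0.18. Leaving out that array moved the averaged value of 19 of the 46 genes by over 1.5 times, of which 0 were among the 8 called, and those values are given below.

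Promoters of the 6 called genes with the smallest p are shown because many genes of late cell cycle are known to share 2 kinds of element. One is the cell cycle genes homology region (CHR), with the letters TTTGAA, which is bound by the MuvB complex together with repressors in resting cells and with B-Myb and FoxM1 in cycling cells. The other is the CCAAT box, with the letters CCAAT, bound by NF-Y. The E2F motif searched was GGCGGGAA. Each was sought on both strands in RefSeq promoter windows of 300 bases, with 250 before and 50 after the transcription start (build GRCm38.p6), and a match was counted whether or not it overlapped another motif. The 250 bases before the start are printed 5′ to 3′ in the direction of the gene, with matches to the 3 motifs in capitals.
Ncapg (chr5:45669675-45669924, forward strand): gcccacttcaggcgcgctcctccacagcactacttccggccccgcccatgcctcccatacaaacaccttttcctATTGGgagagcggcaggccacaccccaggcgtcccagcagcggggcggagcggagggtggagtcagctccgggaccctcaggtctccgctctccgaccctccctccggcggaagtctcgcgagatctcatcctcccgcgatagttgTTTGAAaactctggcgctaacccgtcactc
Cdk1 (chr10:69352913-69353162, reverse strand): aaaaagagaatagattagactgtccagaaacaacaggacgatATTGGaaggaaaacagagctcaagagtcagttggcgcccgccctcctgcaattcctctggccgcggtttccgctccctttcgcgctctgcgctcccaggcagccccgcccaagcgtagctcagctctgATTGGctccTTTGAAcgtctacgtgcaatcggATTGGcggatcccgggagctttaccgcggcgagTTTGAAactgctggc
Mad2l1 (chr6:66534971-66535220, forward strand): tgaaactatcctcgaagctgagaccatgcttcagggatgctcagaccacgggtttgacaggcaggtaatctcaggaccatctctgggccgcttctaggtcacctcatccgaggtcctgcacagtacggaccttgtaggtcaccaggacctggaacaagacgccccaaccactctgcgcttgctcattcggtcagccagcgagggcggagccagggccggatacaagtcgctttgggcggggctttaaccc
Cenph (chr13:100775900-100776149, reverse strand): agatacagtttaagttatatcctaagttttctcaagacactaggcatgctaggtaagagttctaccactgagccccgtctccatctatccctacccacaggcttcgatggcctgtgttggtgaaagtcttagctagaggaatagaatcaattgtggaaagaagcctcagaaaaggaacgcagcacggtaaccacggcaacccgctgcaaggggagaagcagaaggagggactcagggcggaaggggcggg
Ect2 (chr3:27153879-27154128, reverse strand): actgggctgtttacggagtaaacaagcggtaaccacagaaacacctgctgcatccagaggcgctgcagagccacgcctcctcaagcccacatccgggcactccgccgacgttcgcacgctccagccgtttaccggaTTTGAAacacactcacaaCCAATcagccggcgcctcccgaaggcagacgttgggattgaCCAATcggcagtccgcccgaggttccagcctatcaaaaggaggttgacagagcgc
Ndc80 (chr17:71526858-71527107, reverse strand): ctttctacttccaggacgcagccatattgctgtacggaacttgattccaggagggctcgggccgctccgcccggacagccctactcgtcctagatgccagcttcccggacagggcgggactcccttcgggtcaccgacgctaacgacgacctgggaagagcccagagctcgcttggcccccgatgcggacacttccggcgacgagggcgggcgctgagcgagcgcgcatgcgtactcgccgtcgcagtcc

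Cdk1 held CHR matches beginning at -71 and -15 from its start and 3 inverted CCAAT boxes, at -208, -80 and -48. Ncapg held a CHR match at -30 and an inverted CCAAT box at -176. Ect2 has a second RefSeq start, and at the start shown it held a CHR match at -114 with CCAAT boxes at -96 and -55. Past the printed bases, Ndc80 had an inverted CHR match at 30, Cenph had a CCAAT box at 32 and an E2F match at 42, and Ect2 had a CCAAT box at 2 and a CHR match at 40 after the start. Mad2l1 had no match in its window, nor did Nuf2, and Ncapd2 had a CHR match at -123 with 3 inverted CCAAT boxes.

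Entries were found for 40 of the 48 genes, Ccnb1 included, with 45 promoters in all, since 4 genes had several. The CHR letters were in 32 of the 45, or 71.1%, against 17.9% of the 32851 promoters in the table and 12% of the 10219 promoters of genes tested. CCAAT boxes were in 82.2%, against 37.4% of the table and 37.3% of promoters of genes tested, and both motifs were in 64.4%, against 6.95% and 4.87%. The E2F letters were in 2.22%, against 2.19% and 4.1%. Among promoters of the 8 called genes 66.7% held CHR letters, and among those of the 30 genes above the filter but not called 76.5% did. That difference was not tested. A match describes letters in this window and not a bound site.

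**Figure D3:**
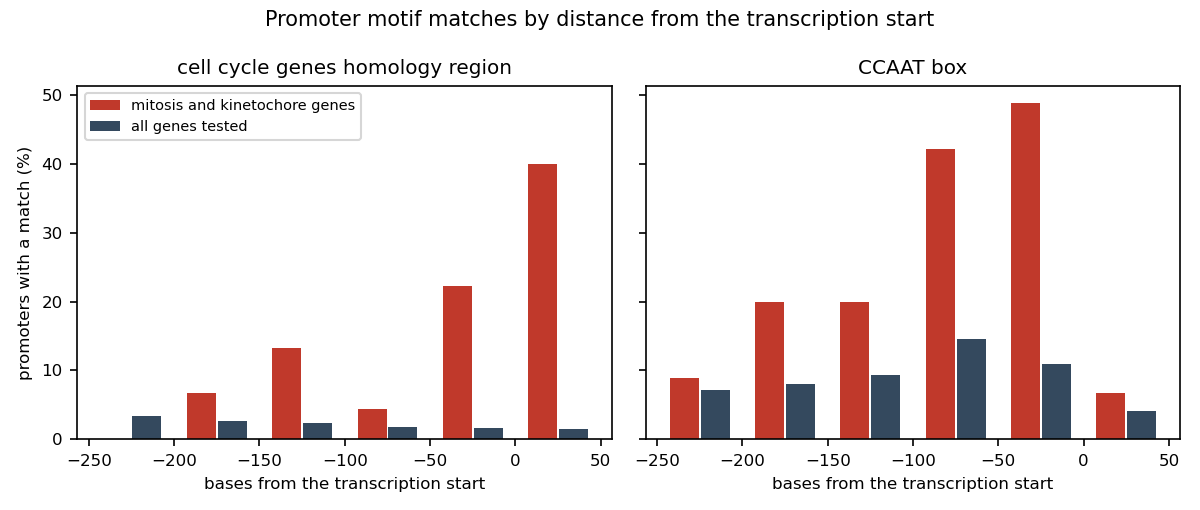
Share of promoters with a CHR match (left) and a CCAAT box (right) in 50-base steps, with the distance of the match from the transcription start on the x axis. Red bars are the 45 promoters of the mitosis and kinetochore genes and dark bars the 10219 promoters of all genes tested. In the last 50 bases before the start CCAAT boxes were in 48.9% against 10.9%, and in the first 50 after it CHR matches were in 40% against 1.47%.

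Of the mitotic kinases, cyclins and Cdc25 phosphatases, 6 passed the filter and 1 was called, with a median averaged log2 fold change of 0.21. Cdk1, the kinase that drives entry into mitosis, measured 908, 730.1 and 739 on the male E2 arrays, against 617, 581 and 634 on the male oil arrays. In females it measured 869, 858 and 794 under E2, against 759.6, 665 and 702 under oil. The groups did not overlap in either sex, and the averaged log2 fold change was 0.31 ± 0.07 (SE), with an adjusted p of 0.0152. Ccna2, which encodes cyclin A2, a Cdk partner in S phase and early mitosis, measured 914, 829 and 949 under E2 in males, against 732, 524 and 715 under oil. On female arrays it measured 1270.0, 804 and 691 under E2, against 828, 710.3 and 672 under oil. The male groups were apart, the female ones overlapped with the first E2 array far above the rest, and the averaged log2 fold change of 0.37 ± 0.13 did not pass (adjusted p 0.104). Plk1, the Polo-like kinase that acts on centrosomes and kinetochores, measured 533, 418 and 460.0 under E2, against 445, 313 and 435 under oil in males. In females Plk1 measured 698, 513 and 519 under E2, against 490.1, 526 and 548 under oil. Plk1 overlapped in both sexes, at an averaged 0.19 ± 0.11 (adjusted p 0.292). The other 3, Ccnb2, Cdc25c and Aurka, were at 0.22, 0.18 and 0.08, with 0 called. Ccnb2 was at 0.06, Ccna2 at 0.24 and Plk1 at 0.12 without female E2 replicate 1.

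The chromosomal passenger complex, which corrects faulty attachments of chromosomes to the spindle, had 0 of its 4 genes called, with a median of 0.20 and 3 of 4 at an unadjusted p under 0.05. Its kinase gene Aurkb measured 535, 423 and 467 under E2 in males, against 419, 312 and 457 under oil. Its female arrays measured 516, 480.3 and 470.1 under E2, against 422, 403 and 341 under oil. The groups were apart in females and overlapped in males, and the averaged 0.30 ± 0.10 had an adjusted p of 0.0681. Birc5, which encodes survivin, measured 539.8, 444 and 525 under E2 in males, against 395, 387 and 446 under oil. In females Birc5 measured 666, 546 and 590.2 under E2, against 542, 513 and 579.5 under oil. Its groups overlapped in both sexes, and the averaged 0.22 ± 0.07 had an adjusted p of 0.0876. Cdca8 (borealin) and Incenp, the scaffold subunits, were at 0.19 and 0.19, and both were at 0.12 without female E2 replicate 1.

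Among the 8 genes of the spindle checkpoint, the APC/C and separase, 1 was called and the median was 0.24. Mad2l1, whose protein binds and restrains the APC/C activator Cdc20, measured 681, 575 and 552 under E2 in males, against 479, 512 and 547 under oil. Among females it measured 817, 668 and 641 under E2, against 522, 494 and 541 under oil. The E2 arrays lay above the oil arrays in both sexes, with an averaged log2 fold change of 0.34 ± 0.08 and an adjusted p of 0.017. Ttk, the Mps1 kinase that starts checkpoint signalling, measured 240.4, 226 and 226 under E2 in males, against 207, 139.8 and 174 under oil. In females Ttk measured 299.6, 206 and 218 under E2, against 209, 194 and 228 under oil. Ttk was apart in males and overlapped in females, and its averaged 0.30 ± 0.11 did not pass (adjusted p 0.0953).

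Ube2c and Bub3 were the members of that subgroup with the least response. Ube2c, the E2-type ubiquitin-conjugating enzyme of the APC/C (a name unrelated to estradiol), measured 1268, 907 and 952 under estradiol in males, against 938, 1148 and 1118 under oil. In females it measured 1244, 932 and 1250.1 under estradiol, against 1181, 1229 and 1047 under oil. The arrays overlapped in both sexes and the averaged value was -0.03 ± 0.10, the lowest of the 46 genes in that comparison. Bub3, a checkpoint protein that places Bub1 and BubR1 on kinetochores, measured 876, 911 and 887 under E2 in males, against 922, 930.1 and 921 under oil. In females Bub3 measured 999, 1104 and 882 under E2, against 963, 868 and 887 under oil. Its male E2 arrays all lay below its male oil arrays by a small margin, its female arrays overlapped, and its averaged 0.04 ± 0.06 did not pass. The rest, Bub1, Bub1b, Cdc20 and the separase gene Espl1, ran from 0.12 for Cdc20 to 0.35 for Bub1. The subgroup median was 0.15 without female E2 replicate 1, with Bub1 at 0.20, Bub1b at 0.09, Espl1 at 0.17 and Ube2c at -0.07.

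The 9 centromere and kinetochore genes had the highest subgroup median in the averaged comparison, 0.36, with 3 called and 8 of 9 at an unadjusted p under 0.05. Cenph, a subunit of the inner kinetochore network, measured 501, 529 and 503 under E2 in males, against 349, 319 and 347 under oil. On female arrays it measured 597, 391.5 and 362 under E2, against 427, 301 and 324 under oil. The male groups were far apart, while in females E2 replicates 2 and 3 lay below oil replicate 1. The averaged log2 fold change of Cenph was 0.47 ± 0.12 (adjusted p 0.0259), and 0.36 without female E2 replicate 1 (adjusted p 0.02).

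Ndc80 and Nuf2 encode the paired subunits of the Ndc80 complex that grip the microtubule. Ndc80 measured 484, 455 and 448 under E2 in males, against 419, 335 and 373 under oil. Its female arrays measured 566, 438 and 438 under E2, against 424, 365 and 335 under oil. The groups did not overlap in either sex, and the averaged value was 0.33 ± 0.09 (adjusted p 0.033). Nuf2 measured 373, 273 and 244 under E2 in males, against 233, 196 and 268 under oil. In females Nuf2 measured 418, 307 and 355 under E2, against 269, 271 and 257 under oil. Nuf2 was apart in females and overlapped in males, at 0.38 ± 0.11 (adjusted p 0.0475). The other subunits of that complex, Spc24 and Spc25, were at 0.44 and 0.36, with adjusted p of 0.0615 and 0.0617, and so were not called. Cenpk, an inner kinetochore gene, was at 0.44, the kinesin gene Cenpe at 0.29, Cenpf at 0.25 and Cenpa, the centromeric histone H3 variant, at 0.14, also not called. Cenpk was at 0.27 without female E2 replicate 1.

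None of the 9 kinesin and spindle genes was called in the averaged comparison, where limma gave 5 of 9 an unadjusted p under 0.05 and the median was 0.22. Tpx2, which targets Aurora A to the spindle and promotes microtubule nucleation, measured 399.5, 436 and 479 under E2 in males, against 323, 279 and 349 under oil. Among females it measured 520.2, 404 and 409 under E2, against 405, 405 and 500.1 under oil. The male groups were apart and the female ones overlapped widely, with 0.24 ± 0.09 on average (adjusted p 0.11). Kif4, the chromosome-bound kinesin, measured 236, 224 and 288 under E2 in males, against 220.2, 188 and 207 under oil. In females Kif4 measured 323, 232 and 281 under E2, against 228, 262 and 224 under oil. Kif4 was apart in males by a small margin and overlapped in females, at 0.25 ± 0.09 on average (adjusted p 0.111). Kif23, a motor of the central spindle, had the lowest averaged value of the subgroup, 0.03 ± 0.07. It measured 630.3, 519 and 603 under E2 in males, against 510.1, 511 and 527 under oil, and 526, 479 and 578 under E2 in females, against 538, 545 and 632 under oil. Its arrays overlapped in both sexes. Prc1 and Nusap1, which bundle and stabilise spindle microtubules, were at 0.08 and 0.10, while Kif11, Kif20a, Kif2c and Hmmr lay between 0.21 and 0.23. Prc1 and Nusap1 were both at 0.02, and Kif20a at 0.15, when female E2 replicate 1 was left out.

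The condensin and mitotic chromosome genes had 2 of 7 called and a median of 0.24. Ncapg, a regulatory subunit of condensin I, measured 425, 455 and 414 under E2 in males, against 344, 250.01 and 331 under oil. In females it measured 513, 395 and 355 under E2, against 319, 298 and 313 under oil. The groups did not overlap in either sex, and at 0.46 ± 0.10 Ncapg had the smallest p of the set (adjusted p 0.0112). Ncapd2, another condensin I subunit, measured 1047, 991 and 926 under E2 in males, against 961, 767 and 798 under oil. In females Ncapd2 measured 1222, 1006 and 1098 under E2, against 913, 757 and 957 under oil. Ncapd2 was apart in females and overlapped in males, at 0.29 ± 0.08 (adjusted p 0.0447). Ncaph, another condensin I regulator, was at 0.24, and the core ATPase genes Smc2 and Smc4 were at 0.19 and 0.12. The subgroup had 1 of 7 called and a median of 0.10 without female E2 replicate 1, with Ncaph at 0.10, Smc2 at 0.09 and Smc4 at 0.06.

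Mki67 and Top2a were not called. Mki67, which encodes Ki-67, a coat protein of mitotic chromosomes, measured 1125, 954 and 1006 under E2 in males, against 899, 698 and 906 under oil. On female arrays it measured 1286, 913 and 907 under E2, against 999.6, 987 and 983 under oil. Its male groups were apart, and in females the first E2 array lay above the oil arrays and the other E2 arrays below them. Top2a, the topoisomerase that untangles sister chromatids, measured 1359, 1274 and 1321 under E2 in males, against 1049.9, 872 and 1099.9 under oil. In females Top2a measured 1677, 1076 and 1076 under E2, against 1166, 1108 and 1162 under oil. It showed the same pattern of arrays as Mki67. The averaged log2 fold changes were 0.18 ± 0.10 for Mki67 (adjusted p 0.286) and 0.26 ± 0.10 for Top2a (adjusted p 0.14), and without female E2 replicate 1 they were 0.09 for Mki67 and 0.15 for Top2a.

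Of the 3 cytokinesis genes, 1 was called and the median was 0.31. Ect2, the exchange factor that switches on RhoA at the cell equator, measured 264, 221 and 209 under E2 in males, against 154, 142 and 179 under oil. Its female arrays measured 240.3, 181 and 246 under E2, against 209, 183 and 140.4 under oil. The male groups were apart, the female groups overlapped, and the averaged value was 0.44 ± 0.11 (adjusted p 0.0276). Racgap1, which recruits Ect2 to the central spindle, measured 343, 281 and 359 under E2 in males, against 289, 228 and 258 under oil. In females Racgap1 measured 439, 368 and 311 under E2, against 317, 260.0 and 334 under oil. Racgap1 overlapped in both sexes, at 0.31 ± 0.10 (adjusted p 0.0715). Anln, the anillin scaffold of the contractile ring, was at 0.21, and at 0.13 without female E2 replicate 1.

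**Figure D4:**
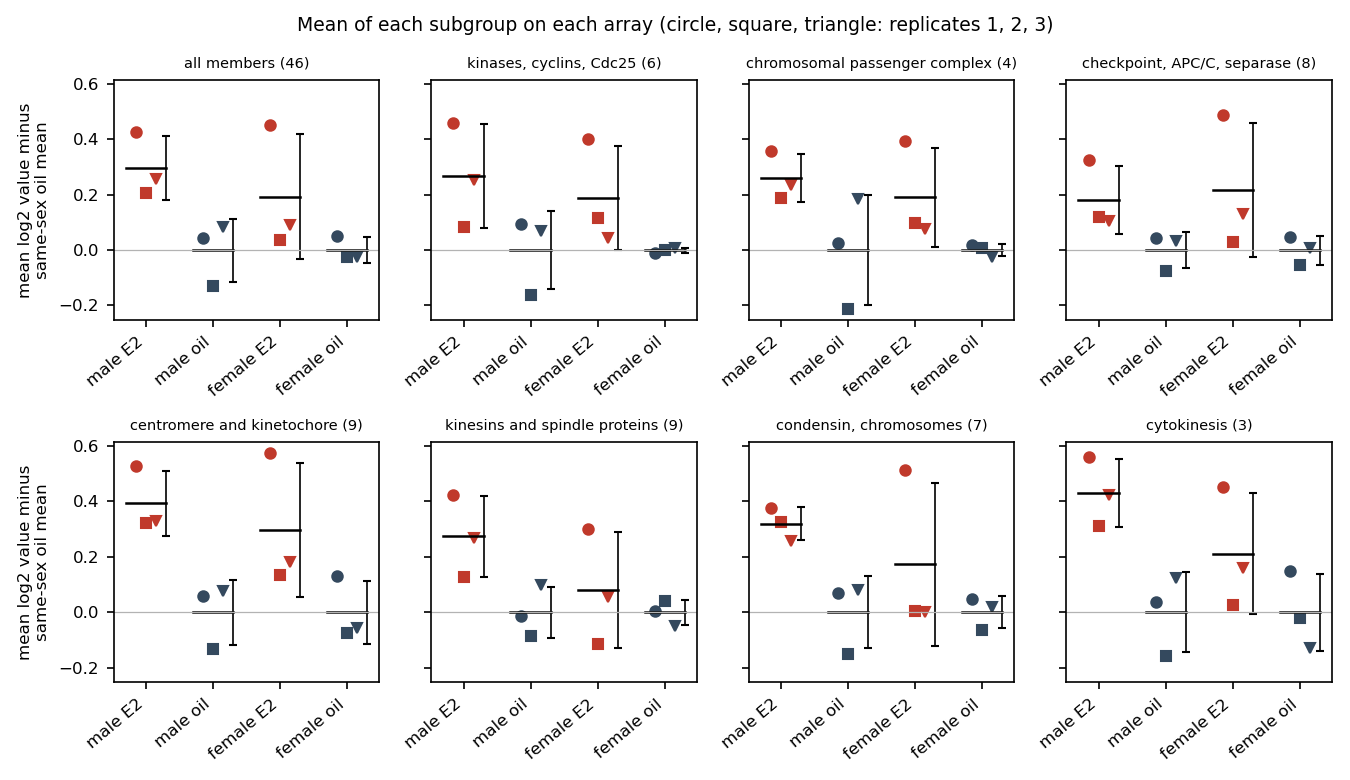
Mean log2 value of each subgroup on each array, minus the oil mean of the same sex. Circles, squares and triangles are replicates 1, 2 and 3, horizontal lines are group means, bars are SD over 3 arrays and the number of genes is in brackets. In every panel female E2 replicate 1 lies above the other female E2 arrays, and male E2 replicate 1 is the highest male E2 array.

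In males alone 0 of 46 genes were called by limma (adjusted p under 0.05), against a background of 0.572% of all genes called higher. At an unadjusted p under 0.05 there were 20, against 1470 of the 9967 genes tested, in either direction. The median log2 fold change was 0.30, with 44 of 46 above 0 against 50% of all genes tested. The 3 male E2 arrays lay above the 3 male oil arrays for 26 of 46 genes, or 56.5%, against 13.6% of all genes tested, and below them for Bub3, against 13% of all genes. Cenph had the largest male difference, 0.60 ± 0.17 (adjusted p 0.108), followed by Ect2 at 0.54 ± 0.16, Cenpk at 0.50 ± 0.22 and Ncapg at 0.49 ± 0.14. With female E2 replicate 1 left out of the shared estimate of spread, the male folds stayed as they were and 5 genes were called, namely Cenph, Cenpk, Ncapg, Top2a and Tpx2, with adjusted p from 0.0131 for Cenph to 0.0388 for Tpx2, against 1.6% of all genes called higher in that fit.

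The male arrays also differed among themselves. Male E2 replicate 1 was the highest of the 3 male E2 arrays for 34 of 46 genes, or 73.9%, against 34.6% of all genes tested. Male oil replicate 2 was the lowest of the 3 male oil arrays for 35 of 46, or 76.1%, against 33.6% of all genes tested. Without male oil replicate 2 the male median was 0.23, and without male E2 replicate 1 it was 0.24.

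In females 1 of 46 genes was called, Mad2l1, at 0.44 ± 0.11 (adjusted p 0.0435), against a background of 0.813% of all genes called higher. The median was 0.15, with 43 of 46 above 0 against 44.2% of all genes tested. An unadjusted p under 0.05 was found for 9 of 46, against 1853 of the 9967 genes tested, a similar share. The E2 arrays lay above the oil arrays for 8 of 46 genes, or 17.4%, against 6.95% of all genes tested. These were Cdk1, Aurkb, Mad2l1, Ndc80, Nuf2, Kif2c, Ncapg and Ncapd2. In both sexes at once this held for 4 of 46, Cdk1, Mad2l1, Ndc80 and Ncapg, or 8.7%, against 2.32% of all genes tested.

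Without female E2 replicate 1, 0 of the 46 genes were called in females, against 1.33% of all genes tested called higher. Mad2l1 was then at 0.34 (adjusted p 0.0804). The call of Mad2l1 was lost in 10 of 12 fits that left out 1 array. Without female E2 replicate 1 the female median was 0.07 and 29 of 46 genes, or 63%, were above 0, against 40.8% of all genes tested. The median of all genes tested was itself below 0 in that fit, at -0.04. The remaining 2 E2 arrays lay above the 3 oil arrays for 10 of 46 genes, or 21.7%, against 12.4% of all genes tested. The 9 centromere and kinetochore genes were then all above 0 with a median of 0.12, whereas the condensin and mitotic chromosome genes had 2 of 7 above 0 and a median of -0.09, and the kinesin and spindle genes 4 of 9 and a median of -0.09. Mki67 was at -0.12 and Top2a at -0.09 on the remaining female arrays.

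No gene of the set passed the test of a difference in response between females and males. For the female minus the male response, limma called 0 of 46 genes, against 0.01% of all genes tested. At an unadjusted p under 0.05 there was 1, against 535 of the 9967 genes tested. The median was -0.11, with 12 of 46 above 0 against 40.5% of all genes tested. Without female E2 replicate 1 the median was -0.235, with 5 of 46 above 0 against 39.2% of all genes tested, and again 0 were called. The gene with the smallest p was Tpx2, at -0.45 ± 0.18 (adjusted p 0.907), with 0.02 in females and 0.47 in males. This comparison has a standard error larger than that of either sex alone, so a p that misses the threshold does not show equal responses.

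**Figure D5:**
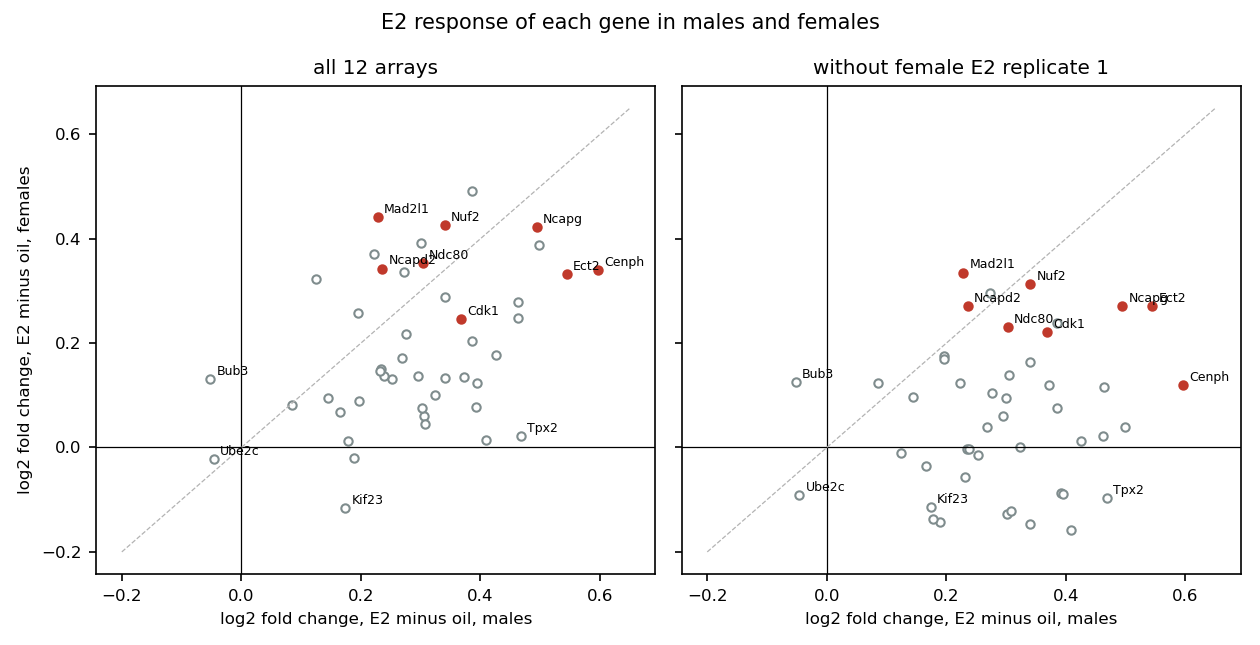
Log2 fold change of E2 over oil for each of the 46 genes, in males (x axis) and in females (y axis), with all 12 arrays (left) and without female E2 replicate 1 (right). Filled red points are the 8 genes called in the averaged comparison of all arrays, and the dashed line marks equal responses. Without that array most points lie lower and their median in females is 0.07.

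Under oil, 40 of 46 genes were higher in females than in males, against 49.2% of all genes tested. The median female minus male difference was 0.20, but limma called 0, against 0.0401% of all genes tested. An unadjusted p under 0.05 was found for 7 of 46, against 497 of the 9967 genes tested. Birc5 averaged 545 ± 33.2 in female oil and 409 ± 32 in male oil arrays (SD, n = 3 each), a difference of 0.41 ± 0.10 (adjusted p 0.517). Tpx2 averaged 437 ± 54.8 in female oil and 317 ± 35.8 in male oil arrays, a difference of 0.46 ± 0.13 (adjusted p 0.647). Under E2, 31 of 46 were higher in females, against 38.7% of all genes tested. The median was 0.08, against -0.04 over all genes tested, and limma called 0 of 46, against 0.01% of all genes tested. An unadjusted p under 0.05 was found for 1 of 46, against 901 of the 9967 genes tested. Without female E2 replicate 1 the median of the 46 genes was -0.07, near that of all genes tested, -0.06. In that fit 18 of 46 were higher in females, against 37.3% of all genes tested. Of the 46 genes 0 were called, against 11 higher and 6 lower over all genes tested. The oil arrays enter both the E2 comparison and the sex comparison, so these values are not independent of the E2 responses above.

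Other genes of mitosis were listed apart from the 48. For these lists and those that follow, the averaged comparison called 3.12% of all genes tested higher and 5.78% lower, and 46.7% were above 0. An unadjusted p under 0.05 was found for 2453 of the 9967 genes tested. Of 23 other kinetochore and centromere genes above the filter 2 were called higher in the averaged comparison, Trip13 (0.56, adjusted p 0.018), an ATPase that recycles Mad2, and Pmf1 (0.35, 0.0318), a subunit of the Mis12 complex, with a list median of 0.14. Of 22 other spindle and cytokinesis genes 2 were called, Kif15 (0.51) and Kif22 (0.42), both kinesins, with a median of 0.13. Of 18 genes of the APC/C and its regulators 1 was called, the subunit gene Anapc15 (0.43). The median of that list was 0.00 and 9 of 18 were above 0, so it lay near all genes tested. The 15 cohesin genes had 0 called (1 at an unadjusted p under 0.05) and a median of 0.05. The 3 other condensin genes had 0 called, 1 at an unadjusted p under 0.05, and a median of 0.15.

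Among 16 other regulators of mitotic entry and exit 2 were called and the median was 0.19. Haspin, the kinase that marks histone H3 to bring Aurora B to centromeres, averaged 343 under E2 and 240.3 under oil in males, and 457 under E2 and 249 under oil in females, an averaged log2 difference of 0.69 (adjusted p 0.000597). Cks1b, a small Cdk-binding protein, averaged 1861 under E2 and 1333 under oil in males, and 1940.0 under E2 and 1514 under oil in females, a log2 difference of 0.42 (adjusted p 0.00163). Both rose, and for each the female as well as the male group mean was higher under E2. Of 16 transcriptional regulators of mitotic genes 3 were higher, E2f1 (0.36), its partner Tfdp1 (0.40) and the pocket protein gene Rbl1 (0.32), which encodes p107. The MuvB subunit gene Lin37 was lower (-0.24), and the list median was 0.15.

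DNA replication genes of S phase, which comes earlier in the cell cycle than mitosis, are given for comparison. Of 47 above the filter 10 were called higher and 0 lower in the averaged comparison, with a median of 0.33 and 46 above 0. The 6 with the smallest p were Tk1 (0.50), Uhrf1 (0.58), Pole (0.56), Cdc6 (0.76), Tipin (0.48) and Fen1 (0.50), given as averaged log2 fold changes. Their mean, minus the oil mean of the same sex, was 0.28, 0.47 and 0.35 on male E2 replicates 1, 2 and 3, against 0.06, -0.11 and 0.04 on the male oil arrays. In females it was 0.72, 0.12 and 0.08 on the E2 arrays, against 0.22, -0.19 and -0.02 on the oil arrays. Male E2 replicate 2 was thus the highest male array for the S phase genes, and male E2 replicate 1 for the mitosis genes, while female E2 replicate 1 was highest for both. Without female E2 replicate 1, 11 of 46 S phase genes were called higher in the averaged comparison, against 3.19% of all genes tested, with a median of 0.23. In females their median was then 0.08, with 33 of 46 above 0 against 40.8% of all genes tested, and 0 were called. The difference between the lists was not tested. Their promoters differed in letters too, with CHR in 11.4% and the E2F motif in 18.2% of 44 S phase promoters, against 71.1% and 2.22% for the mitosis genes.

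Markers of other cells moved on the same arrays. Summed intensities of 10 HSC marker genes ran from 13300 to 13960 on male E2 arrays against 14980 to 15160 on male oil arrays, and from 11970 to 13990 on female E2 arrays against 13730 to 14790 on female oil arrays, with 3 of 10 called lower in the averaged comparison, Procr (-0.47), Kit (-0.32) and Gata2 (-0.38). The 7 progenitor markers summed to 3525 to 3737 on male E2 arrays against 4192 to 4727 on male oil arrays, and to 3113 to 3663 on female E2 arrays against 4355 to 5044 on female oil arrays, with Flt3 (-1.10), Cd27 (-0.39), Cd34 (-0.29) and Satb1 (-0.35) called lower. The 12 granulocyte and monocyte markers were widely spread, from 8015 to 13800 on male E2 arrays against 8473 to 17280 on male oil arrays, and from 6150 to 15360 on female E2 arrays against 9906 to 22030 on female oil arrays, with Prtn3 (-0.29) called lower. List means relative to the female oil mean varied on female E2 replicates 1, 2 and 3, of which replicate 1 had the highest mitosis genes. The sums cover all markers found, whereas these means cover only markers above the filter. Those were 10 HSC, 9 granulocyte and monocyte, 7 megakaryocyte, 4 progenitor, 4 stroma and endothelium, 3 lymphoid and 3 erythroid genes. The granulocyte and monocyte markers were at -1.02, -0.27 and 0.28, with the oil arrays at 0.84, -0.37 and -0.47. Megakaryocyte markers were at -0.82, -0.47 and -0.54, progenitor markers at -0.54, -0.72 and -0.68, and lymphoid markers at -0.49, -0.87 and -0.64. HSC markers were at -0.21, -0.20 and -0.04, erythroid markers at 0.02, 0.51 and 0.11, and stroma and endothelium markers at -0.10, 0.26 and 0.46. The 8 megakaryocyte markers summed to 3062 to 3373 on male E2 arrays against 3787 to 4228 on male oil arrays, and to 2342 to 3165 on female E2 arrays against 3797 to 4142 on female oil arrays. Of these, Plek (-1.33), Pf4 (-1.40), Gp5 (-0.77) and Itga2b (-0.44) were called lower and Gp9 (0.51) higher. The 9 lymphoid markers summed to 1201 to 1301 on male E2 arrays against 1650 to 1942 on male oil arrays, and to 1117 to 1293 on female E2 arrays against 1652 to 1949 on female oil arrays. Nkg7 (-1.67) and the B cell gene Cd79b (-0.41) were called lower. Over the 12 arrays Nkg7 was at 111.8 to 724.5 and Cd79b at 341.4 to 723.5. Cd3e also passed the filter, at 230 to 290.8, and was not called, whereas Cd3g and Ms4a1 were at most 38.9 and 36.3. The 7 erythroid markers summed to 2984 to 3371 on male E2 arrays against 2762 to 3242 on male oil arrays, and to 3088 to 3762 on female E2 arrays against 2763 to 3660 on female oil arrays, with Tfrc (0.36) called higher. The 8 stroma and endothelium markers summed to 1831 to 2070 on male E2 arrays against 1811 to 1964 on male oil arrays, and to 1655 to 2308 on female E2 arrays against 1834 to 2043 on female oil arrays, with Col1a2 (0.90, adjusted p 0.00796) called higher. The 5 mast cell and basophil markers, 0 of them above the filter, summed to 267.7 to 279.4 on male E2 arrays against 348 to 385.9 on male oil arrays, and to 272.4 to 302.9 on female E2 arrays against 295.6 to 390.6 on female oil arrays. The part of these markers in the mitosis results was not tested.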

How the data were processed

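Per the labels, RNA of sorted cells was amplified and labelled with NuGEN kits and hybridised as biotin-labelled cDNA, and the deposited values are the authors' linear probe set intensities for 35474 probe sets on 12 arrays. How they were summarised, background-corrected and normalized is not given in the sources used here. Of the probe sets, 21780 had 1 symbol in the platform annotation, 1605 several and 12089 none. For each of 19935 genes the probe set of highest mean was taken, and Top2a was the one member with a second. Values were taken as log2(intensity + 1), with no array removed.

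Tests used limma 3.58.1 in R 4.3.3, with 1 mean per group over all 12 arrays (8 residual and 5.38 prior degrees of freedom), contrasts and Benjamini-Hochberg adjustment over 9967 genes. The fit was also run on simulated data, with noise drawn separately for each gene and array. Such noise holds no shift shared by many genes on a single array, so that run cannot speak to such shifts. Alternatives were another normalization, offset, filter, probe set rule, prior, array weights, fit of the compared groups alone, a replicate block, and each array left out. Promoters came from the RefSeq table (GRCm38.p6), and Python 3.11.15 and matplotlib 3.10.9 served for searches and figures. The members, lists and tests were chosen with earlier results of these data known. Per-array values are given for called genes, the 2 genes of each subgroup with the smallest p, those with the lowest fold change, and always Mki67, Cdk1, Top2a, Birc5, Plk1 and Aurkb. Other members are given by their averaged value, and genes of other lists called in the averaged comparison are named, at most 6 a list by smallest p. Cenpk, named for males, was chosen after its values were seen. The design also asked for a KEN search in proteins, which was not run.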

Additional observations from a re-analysis of the deposited data

How the results depend on the processing

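The median log2 fold change of the 46 genes kept its direction in every alternative run, with 0.18 to 0.285 averaged over the sexes, 0.23 to 0.353 in males and 0.0682 to 0.243 in females when 1 array at a time was left out. Without female E2 replicate 1 the averaged median of the kinases, cyclins and Cdc25 phosphatases was 0.17 and that of the passenger complex 0.15. It was 0.27 for the centromere and kinetochore genes, 0.15 for the kinesin and spindle genes and 0.25 for the cytokinesis genes. The averaged count of 8 called genes was 13 after quantile normalization and 3 with no filter, which tests more genes, and it ran from 2 to 12 with 1 array left out. The male count of 0 was 5 with array weights and 4 with the compared groups fitted alone, and ran from 0 to 5 with 1 array left out. The female count of 1 was 0 after median centring, with no filter, with the 25th percentile filter, with array weights and with the compared groups alone, and ran from 0 to 2 with 1 array left out. The counts for the difference of responses and for both sex comparisons stayed at 0 in every alternative run. Over all genes, 887 calls in the averaged comparison became 568 with no filter, 143 in males became 409 with array weights, and 355 in females became 67 with the compared groups alone. Kif23 ran from -0.00482 to 0.0705 and Ube2c from -0.109 to 0.0354 in the averaged comparison with 1 array left out, so the sign of both depended on single arrays, in Kif23 on female E2 replicate 3. With the replicate number as a block, 11 genes were called in the averaged comparison, 0 in males and 1 in females. The numbers are not shown to pair the arrays, since deviations of same-numbered E2 and oil arrays correlated at 0.07, -0.14 and 0.04 in males and at 0.20, 0.17 and -0.18 in females. Counts over all genes are given here for only some of these alternatives. Where they are missing, a change particular to the 46 genes cannot be told from a general one. The causes of these changes were not tested. No background intensity comes with the values, so signal over background could not be given.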

Other observations

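Top2a had a second probe set that did not enter the tests. It measured 436, 364 and 386 on the male E2 arrays, against 283, 455 and 304 on the male oil arrays, and 366, 371 and 376 on the female E2 arrays, against 339.6, 290.4 and 235 on the female oil arrays. Its E2 minus oil difference was 0.21 in males and 0.38 in females, whereas the probe set in use gave 0.39 and 0.12. The 3 female E2 arrays lay close together on the second probe set, and female E2 replicate 1 stood apart on the first.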
